A study of Mus musculus with 4 samples.

Results

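The enzymes described here make, recycle and break down nucleotides, together with the folate enzymes that supply one-carbon units for them. The members were 47 named genes, matched to the gene names of the array design, out of 18093 genes and unnamed transcripts tested on the whole array. They were chosen with earlier results of these data known. All 47 were on the array and were well above background on every array, so none was lost to a filter on dim probes. They were compared between NIH3T3 cells, a mouse fibroblast line of embryonic origin that grows indefinitely, with wild-type EGFR and NIH3T3 cells with a deletion mutant of EGFR, the receptor for epidermal growth factor. Each group had 2 arrays hybridised with Cy3-labelled RNA from cells at steady state, and no treatment is given for either group. The labels do not say which residues the deletion removes, from which species the receptor comes, which promoter drives it or whether a line is 1 clone or a pool, and they give no parental line without the introduced receptor. The arrays of a group came from separate cDNA preparations and may share an RNA extract, so the spread behind the p-values is that of these arrays and may be technical.

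Purine rings are built stepwise on phosphoribosyl pyrophosphate (PRPP), and some of the ring carbons come from formyl-folate. The pyrimidine ring is built first and then attached to PRPP, and uridine nucleotides are the source of cytidine and thymidine nucleotides. Ribonucleotide reductase turns ribonucleoside diphosphates into deoxynucleotides for DNA synthesis, and salvage enzymes return free bases and nucleosides to the nucleotide pool. Several of these genes are transcribed mainly in proliferating cells, around the start of S phase.

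All values on the log2 scale below are signals relative to the 75th percentile of the array that carried them, or differences between such values. A fold compares deletion-mutant with wild-type cells. A gene was counted as changed when limma's test, with Benjamini-Hochberg adjustment across the 18093 features, gave an adjusted p under 0.05. All 4 arrays shared 1 slide, where each group filled its own column, so effects of column and of group cannot be told apart. No spot was saturated, and the share of probes well above background ranged from 42.9% to 46.9%. All 6 fibroblast markers examined (Col1a1, Col1a2, Col3a1, Vim, Thy1 and Pdgfrb) were above background on every array. Vim rose, the other 5 fell, and the summed level of the list (in units of the 75th percentile signal) was 1160 and 1210 in wild-type and 779 and 802 in deletion-mutant cells, and its part in the results was not tested. Of markers of other cell types, Epcam, Krt18, Cdh1, Ptprc and Cdh5 were not above background on both arrays of either group, while Itgam and Cd68 of the leukocyte list and Pecam1 of the endothelial list were above background on all 4. Itgam had 5.05 and 5.15 in wild-type and 4.18 and 4.18 in deletion-mutant cells and was called lower. Pecam1 was also called lower (-1.66 and -1.61 against -1.96 and -2.09), and Cd68 did not pass the test (log2 -0.10). The source of these signals was not tested. Krt8 was above background only in deletion-mutant cells, at least 2.79-fold higher.

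The sequences of the probes for Upp1, Rrm2 and Tyms are shown because these genes mark the list, and their values follow. Each probe is 60 bases long, and the first 30 bases are given 5′ to 3′ as the files list them, in lower case with no part marked, with the position of the whole probe on mm9.
Upp1 probe used: tttccgccccggagaagcctctgcaactcc
Upp1 further probe: cttgggtagccatacagcgacttccagatc
Rrm2 probe: ctagcttcctcatgaactgacataaccctg
Tyms probe: tcactgtagtgtgtgtagcattctccccct
The Upp1 probes lie at chr11:9036114-9036173 and chr11:9018223-9018282 on the plus strand, the Rrm2 probe at chr12:25398824-25398883 on the plus strand and the Tyms probe at chr5:30385578-30385637 on the minus strand. Whether a probe lies in a coding or an untranslated exon was not analysed here.

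Of the 47 enzymes, 35 rose in deletion-mutant cells, 2 fell and 10 did not pass the test. The share that rose was 74.5%, where 58.8% of all features tested were called in either direction and 34.6% were called higher. The share that fell was 4.26%, where 24.2% of all features were called lower. Among features above background on all 4 arrays, 36.3% were called higher and 21.8% lower. The median of the 47 log2 fold changes was 0.62, or 1.54-fold, beside a median of 0.066 over all features. Rises of at least 2-fold numbered 11 (23.4%), against 5.94% of all features, and no enzyme fell by that much, against 7.46% of all features. Because the list was chosen with earlier results of these data known, its excess over all features is a description and not a test. Apart from Upp1 the rises were moderate, from 1.14-fold to 2.82-fold, and the 10 enzymes that did not pass had log2 changes between -0.17 and 0.09.

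**Figure D1:**
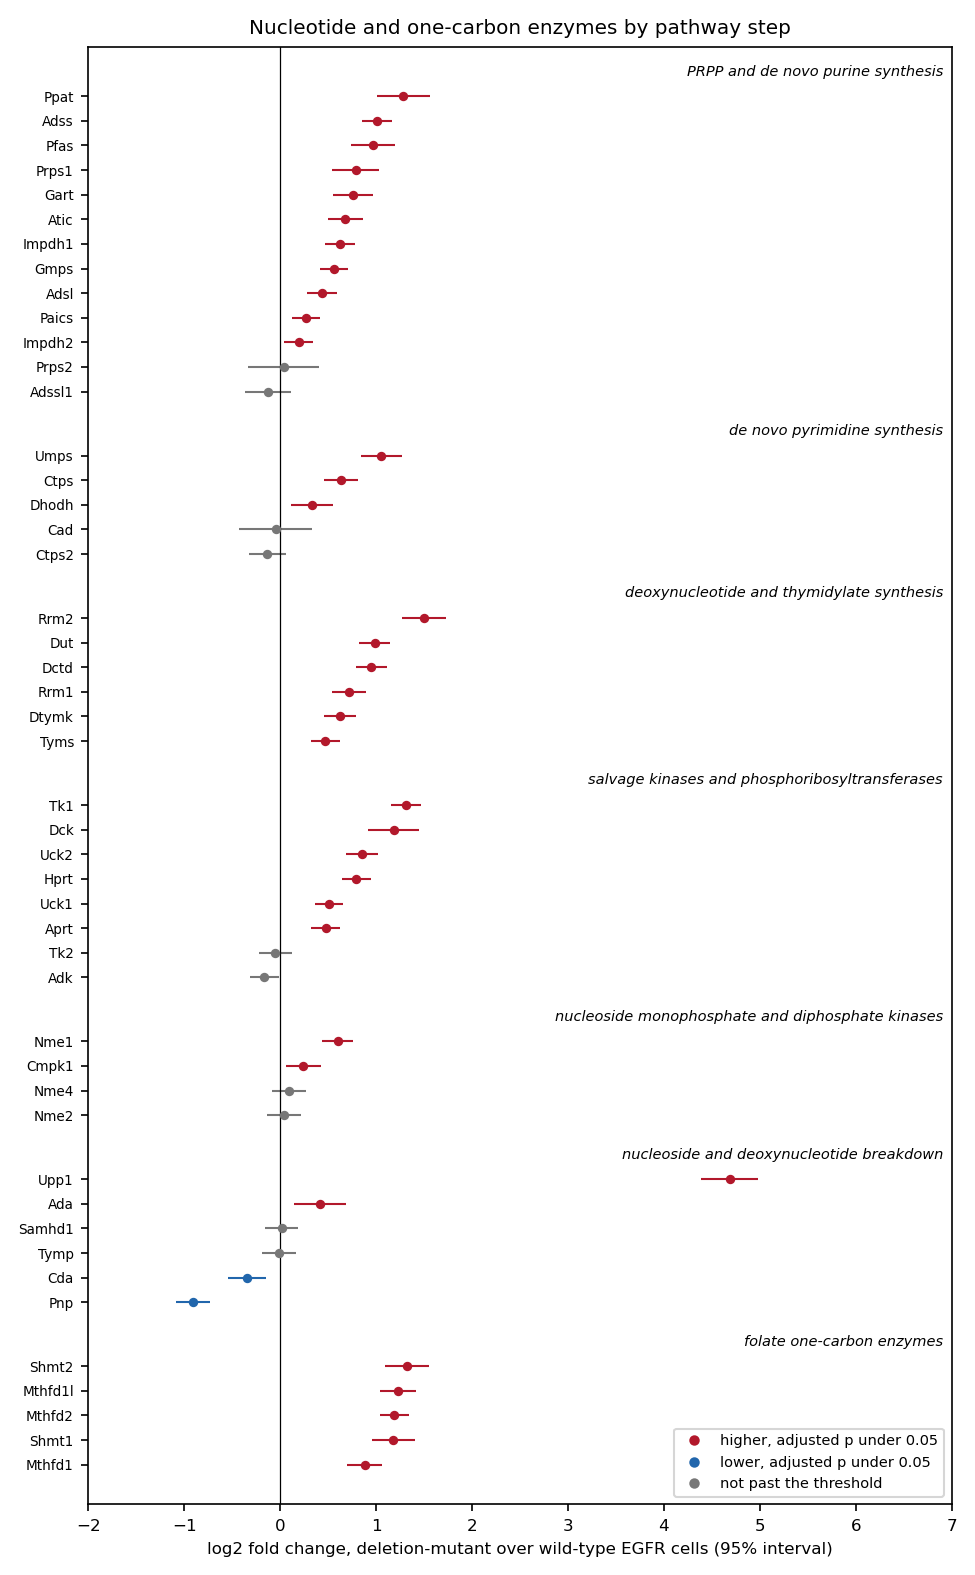
Log2 fold change of each of the 47 enzymes (horizontal axis) with its 95% interval from limma, grouped by pathway step and ordered by size. Upp1 stands at 4.69, the 5 folate enzymes lie between 0.88 and 1.32, and only Pnp and Cda are called lower.

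**Figure D2:**
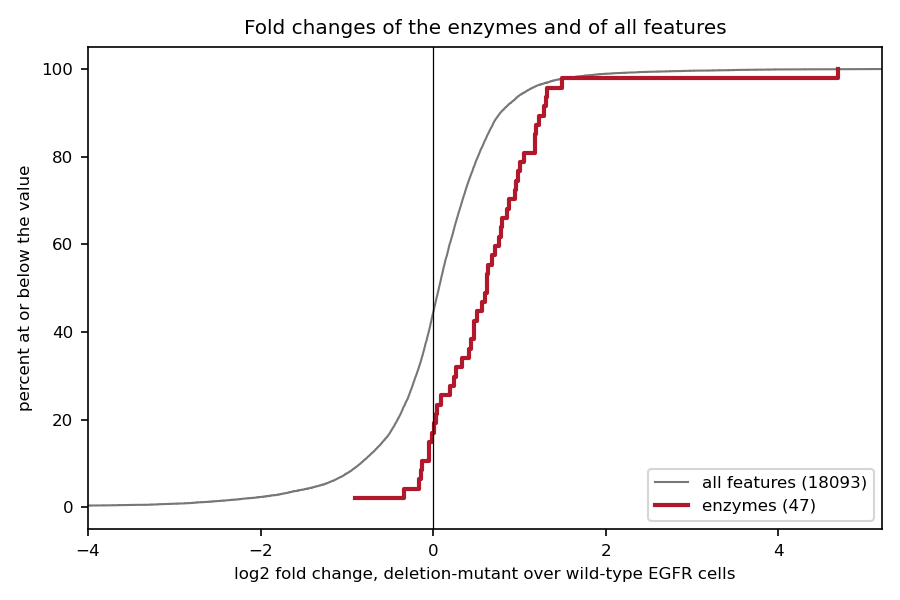
Cumulative percent (vertical axis) of log2 fold changes (horizontal axis) for the 47 enzymes and for all 18093 features. The curve of the enzymes lies to the right of that of all features, with medians of 0.62 and 0.066.

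A short chosen list of proliferation markers moved in the same direction, and other genes of the cell cycle were not examined here. All 5 markers (Mki67, Top2a, Pcna, Mcm2 and Ccnb1) rose, where 34.6% of all features were called higher. Their log2 changes ran from 0.74 to 1.40. Their summed level was 76.2 and 76.1 on the wild-type arrays and 156 and 159 on the deletion-mutant arrays (units of the 75th percentile signal of the array). Their part in the rise of the nucleotide enzymes was not tested. In these bulk samples, a larger share of cells that express a gene and more of its RNA per cell cannot be told apart.

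Most genes of purine synthesis rose: 11 of 13 were higher, where 34.6% of all features were called higher, and Prps2 and Adssl1 did not pass. The median log2 change of the step was 0.62. Ppat, the amidotransferase of the committed step, showed the largest change. Its values were -0.32 and -0.25 on the wild-type arrays and 1.11 and 0.88 on the deletion-mutant arrays, a 2.44-fold rise (log2 1.28 ± 0.100 SE with 2 arrays in each group, adjusted p = 0.00134 from limma). The groups did not overlap, and a further Ppat probe gave -0.29 and -0.10 against 0.81 and 0.87. Adss, which commits inosine monophosphate to adenylate, had 2.50 and 2.54 in wild-type and 3.51 and 3.54 in deletion-mutant cells, a 2.01-fold rise (adjusted p = 0.000708). Pfas, which adds the amide nitrogen from glutamine to the glycinamide intermediate, had 0.81 and 0.63 against 1.71 and 1.66 and was 1.95-fold higher (adjusted p = 0.0017). Both deletion-mutant arrays lay above both wild-type arrays in these 3 genes. They were picked for their large changes, so this separation adds no support.

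Smaller rises were found along the rest of the purine route. The trifunctional Gart was 1.69-fold higher, Atic, which closes the ring, 1.60-fold, Gmps, the guanylate synthetase, 1.48-fold, and Adsl, the lyase that acts both early and late in the route, 1.35-fold. Paics had 4.48 and 4.50 in wild-type against 4.76 and 4.75 in deletion-mutant cells, a 1.20-fold rise (log2 0.27, adjusted p = 0.0157). Paics and Ppat start 276 bases apart on opposite strands of chromosome 5 in RefSeq (GRCm38.p6), so neighbouring starts went with log2 changes of 0.27 and 1.28, whose difference was not tested. The call for Paics was lost when any 1 of the 4 arrays was left out (adjusted p = 0.0588 to 0.0771), and its log2 change was 0.02 after quantile normalization. The call for Impdh2 was likewise lost without any 1 array (adjusted p = 0.124 to 0.143).

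Purine isoenzymes did not all move alike. Prps1, a PRPP synthetase, had 3.43 and 3.62 in wild-type and 4.28 and 4.34 in deletion-mutant cells, 1.73-fold higher (adjusted p = 0.00312). Prps2, which catalyses the same reaction, had -0.53 and -0.38 against -0.26 and -0.58, and these groups overlapped (log2 0.03, 95% interval -0.34 to 0.40). Impdh1, the isoenzyme of the guanylate branch that many resting tissues express, went from 2.48 and 2.51 to 3.10 and 3.14, 1.54-fold higher.

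Impdh2, the isoenzyme known for its link to proliferation, had 5.73 and 5.72 against 5.92 and 5.91, 1.14-fold higher (log2 0.19, interval 0.04 to 0.34, adjusted p = 0.0409). Impdh1 had an interval of 0.47 to 0.78, which lies above that of Impdh2. Adssl1, the isoenzyme of muscle, had -1.60 and -1.40 against -1.60 and -1.65 (log2 -0.13, interval -0.37 to 0.11), while the interval of Adss was 0.86 to 1.16. The differences between isoenzymes were read side by side and were not tested.

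**Figure D3:**
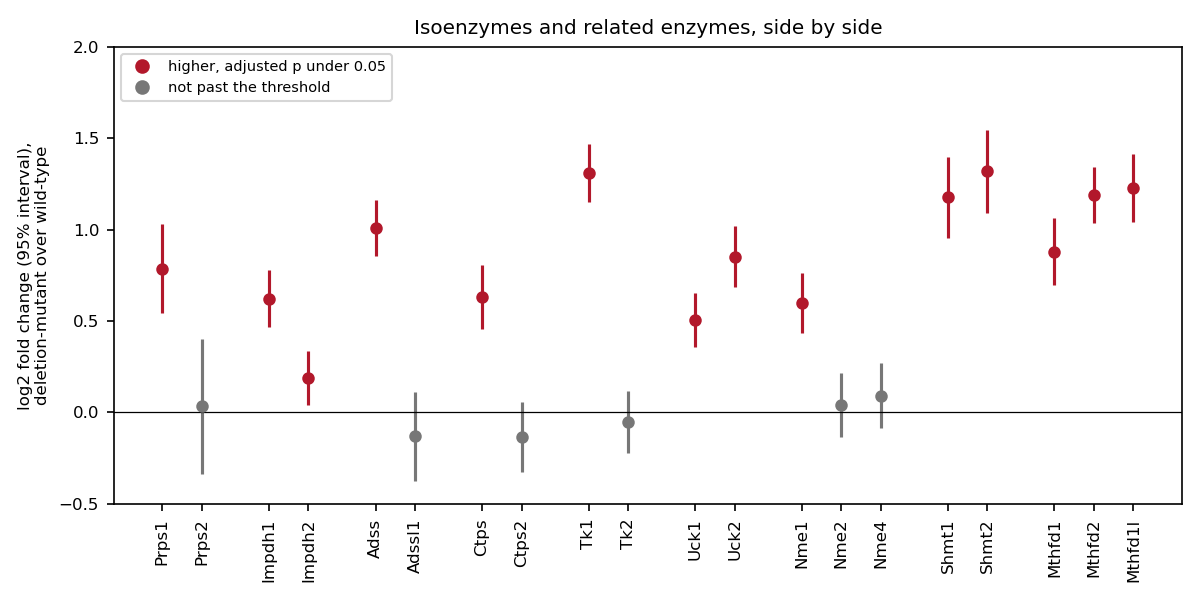
Log2 fold change with its 95% interval from limma (vertical axis) for isoenzymes and related enzymes set side by side. Prps1, Adss, Ctps, Tk1 and Nme1 were higher, while Prps2, Adssl1, Ctps2, Tk2, Nme2 and Nme4 did not pass the test.

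In pyrimidine synthesis 3 of 5 genes rose and 2 did not pass, with a median log2 change of 0.33. Beside 34.6% of all features called higher, counts this small do not set the step apart. Umps, the bifunctional enzyme that yields uridine monophosphate, had 2.92 and 3.08 in wild-type and 4.07 and 4.05 in deletion-mutant cells, a 2.08-fold rise (log2 1.06 ± 0.079 SE, adjusted p = 0.00123). Its further probe gave -0.25 and -0.27 against 0.63 and 0.49. Ctps, a cytidine triphosphate synthetase, went from 4.39 and 4.42 to 4.99 and 5.09, 1.55-fold higher. Neither gene had overlapping groups, but both were picked for the size of their change.

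Dhodh, the mitochondrial dehydrogenase of the route, had 2.07 and 2.13 against 2.35 and 2.51, 1.26-fold higher (adjusted p = 0.0249). That call was lost without wild-type array 1, wild-type array 2 or deletion-mutant array 2 (adjusted p = 0.115, 0.0822 and 0.0756). A dimmer Dhodh probe gave a log2 change of 0.04 ± 0.281. Cad, the trifunctional enzyme that opens the route, was measured by a single dim probe, which limits what its values can show. It had -2.22 and -1.85 against -2.12 and -2.05 with overlapping groups (log2 -0.05, interval -0.43 to 0.33). Ctps2, the other cytidine triphosphate synthetase, had 3.77 and 3.81 against 3.71 and 3.59 (log2 -0.14, interval -0.33 to 0.06). Its dimmer probe fell by 0.53 ± 0.140 on the log2 scale (adjusted p = 0.0347 with every probe tested by itself), so the probes of this gene differed in call.

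All 6 genes of deoxynucleotide and thymidylate synthesis rose, where 34.6% of all features were called higher. The median log2 change of the step was 0.83. Rrm2, the small subunit that carries the radical of ribonucleotide reductase and is known to follow the cell cycle, had 3.73 and 3.86 on the wild-type arrays and 5.36 and 5.23 on the deletion-mutant arrays. That is a 2.82-fold rise (log2 1.50 ± 0.083 SE, adjusted p = 0.0007), the largest after Upp1. Rrm1, the large subunit, went from 3.46 and 3.37 to 4.10 and 4.15, 1.64-fold higher. The intervals of the log2 changes of the subunits were 1.27 to 1.72 for Rrm2 and 0.54 to 0.89 for Rrm1.

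Tyms, which methylates deoxyuridylate to thymidylate, had -1.02 and -1.03 against -0.54 and -0.57, a 1.38-fold rise (log2 0.47 ± 0.055 SE, adjusted p = 0.00343) measured by a single probe. By the brightest probes it was the smallest change of this step. Its groups did not overlap, which adds no support beyond the call. Dtymk, the thymidylate kinase, was 1.54-fold higher by its brighter probe and had a log2 change of 1.07 by a dimmer one. Both enzymes that supply deoxyuridylate rose. Dut, which hydrolyses dUTP, went from 2.12 and 2.19 to 3.14 and 3.14 (1.98-fold, adjusted p = 0.000795), and Dctd, the deoxycytidylate deaminase, from -1.43 and -1.45 to -0.52 and -0.46 (1.93-fold, adjusted p = 0.000842). Dimmer probes gave smaller log2 changes, 0.53 for Dut and 0.59 for Dctd, so the order of these enzymes and Dtymk by size depends on the probe.

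Among salvage kinases and phosphoribosyltransferases 6 of 8 rose and 2 did not pass, where 34.6% of all features were called higher. The median log2 change of the step was 0.65. Tk1, the cytosolic thymidine kinase of S phase, had 3.44 and 3.39 in wild-type and 4.71 and 4.75 in deletion-mutant cells, a 2.48-fold rise (log2 1.31 ± 0.058 SE, adjusted p = 0.000478). A further Tk1 probe gave 1.46 and 1.47 against 2.83 and 2.87. Tk2, the mitochondrial thymidine kinase, had 0.76 and 0.85 against 0.75 and 0.75 (log2 -0.05, interval -0.22 to 0.12). Thus the cytosolic enzyme was higher and the mitochondrial one was not called, in the same arrays.

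Dck, the deoxycytidine kinase, went from -1.52 and -1.48 to -0.20 and -0.43, 2.27-fold higher (adjusted p = 0.00149). The uridine-cytidine kinases were both higher. Uck2 had 3.95 and 3.88 against 4.78 and 4.75 (1.81-fold), and Uck1 had 4.09 and 4.09 against 4.59 and 4.60 (1.42-fold). The purine phosphoribosyltransferases Hprt, which salvages hypoxanthine and guanine, and Aprt, which salvages adenine, were 1.73-fold and 1.39-fold higher. Adk, the adenosine kinase, had 3.67 and 3.70 against 3.52 and 3.52, and this log2 difference of -0.17 missed the threshold (adjusted p = 0.0592).

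Of 4 nucleotide kinases 2 rose and 2 did not pass. Beside 34.6% of all features called higher, counts this small do not set the step apart. Nme1, a nucleoside diphosphate kinase, had 4.69 and 4.68 in wild-type and 5.25 and 5.32 in deletion-mutant cells, a 1.51-fold rise (adjusted p = 0.00224), and its further probe had a log2 change of 0.49. Nme2 had 8.17 and 8.25 against 8.22 and 8.28 with overlapping groups (log2 0.04, interval -0.14 to 0.22). The coding sequences of these neighbouring genes are very similar, so a probe of one may bind RNA of the other, and the array design places a further Nme2 probe on chromosome 8, away from the gene on chromosome 11. Nme4, the mitochondrial member of the family, had 3.39 and 3.47 against 3.48 and 3.56 (log2 0.09, interval -0.09 to 0.27). Cmpk1, which phosphorylates cytidylate and uridylate, had 1.90 and 2.02 against 2.18 and 2.22, 1.18-fold higher (adjusted p = 0.0398). The call for Cmpk1 was lost when any 1 of the 4 arrays was left out (adjusted p = 0.0613 to 0.15).

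Of the 6 enzymes that break down nucleosides and deoxynucleotides, 2 rose, 2 fell and 2 did not pass. Over all features 34.6% were called higher and 24.2% lower, so counts this small do not set the step apart. Upp1 cleaves uridine to uracil and ribose-1-phosphate and was 25.7-fold higher. Its values were -1.15 and -1.15 on the wild-type arrays and 3.40 and 3.68 on the deletion-mutant arrays (log2 4.69 ± 0.109 SE, interval 4.39 to 4.98, adjusted p = 0.000175). The size of the fold depends on how background is handled, and normexp background correction gave a log2 change of 4.18. Its further probe was not well above background in wild-type cells (-5.96 and -5.65) and was above it in deletion-mutant cells (-2.0 and -2.03), which gives at least 3.0-fold. For that bound the wild-type value of each array was the probe's own signal or the dimmest signal well above background, whichever was higher.

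The other phosphorylases did not rise with Upp1. Tymp, the thymidine phosphorylase, had 2.09 and 2.03 against 2.01 and 2.10 with overlapping groups (log2 -0.01, interval -0.19 to 0.17). Pnp, the purine nucleoside phosphorylase, had 4.20 and 4.27 against 3.37 and 3.29, 1.88-fold lower (log2 -0.91 ± 0.065 SE, adjusted p = 0.00112). A further Pnp probe was not well above background on any array (-5.77 and -5.52 against -5.53 and -5.34), so the fall rests on the brighter probe alone. Pnp was the only enzyme of the 47 called lower under all 14 alternative settings for single genes.

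The deaminases of this step, Cda and Ada, had small changes. Cda, the cytidine deaminase, had 2.82 and 2.69 against 2.44 and 2.39 and fell by 0.34 on the log2 scale (adjusted p = 0.017). Ada, the adenosine deaminase, had 0.97 and 1.06 against 1.54 and 1.32, 1.33-fold higher (adjusted p = 0.0247). The call for Cda was lost without wild-type array 1 or deletion-mutant array 2 (adjusted p = 0.0724 and 0.0592), and that for Ada without wild-type array 1, wild-type array 2 or deletion-mutant array 1 (adjusted p = 0.116, 0.0794 and 0.055). Samhd1, which degrades deoxynucleoside triphosphates, had 2.21 and 2.28 against 2.23 and 2.29 by its brightest probe (log2 0.01). A dimmer Samhd1 probe had -0.12 and -0.17 against 0.26 and 0.35, a log2 rise of 0.45 ± 0.067 (adjusted p = 0.0073 with every probe tested by itself), so the probes of this gene differed in call.

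All 5 folate enzymes rose, 4 of them by at least 2-fold, where 34.6% and 5.94% of all features did so. Their median log2 change of 1.19 was the highest of the 7 steps. Shmt2, the mitochondrial hydroxymethyltransferase that takes a one-carbon unit from serine, had 3.88 and 4.04 in wild-type and 5.32 and 5.23 in deletion-mutant cells, a 2.50-fold rise (log2 1.32 ± 0.083 SE, adjusted p = 0.000868). Mthfd2, the mitochondrial dehydrogenase and cyclohydrolase, went from 2.85 and 2.88 to 4.03 and 4.07 (2.28-fold, adjusted p = 0.000538). Mthfd1l, which releases formate from mitochondrial formyl-folate, went from 3.56 and 3.59 to 4.86 and 4.74 (2.34-fold, adjusted p = 0.000703). None of these groups overlapped, but the genes were picked for the largest changes of the step. A further Mthfd1l probe had a log2 change of 1.27.

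The cytosolic partners rose as well. Shmt1, the cytosolic hydroxymethyltransferase, had -0.91 and -0.77 against 0.28 and 0.39, 2.26-fold higher (interval of the log2 change 0.95 to 1.40). The interval of Shmt2 was 1.09 to 1.55, so the changes of the cytosolic and the mitochondrial isoenzyme had overlapping intervals. Mthfd1, the trifunctional cytosolic enzyme, had 3.15 and 3.24 against 4.04 and 4.11, 1.84-fold higher (interval 0.70 to 1.06). Mthfd2 had an interval of 1.04 to 1.34.

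**Figure D4:**
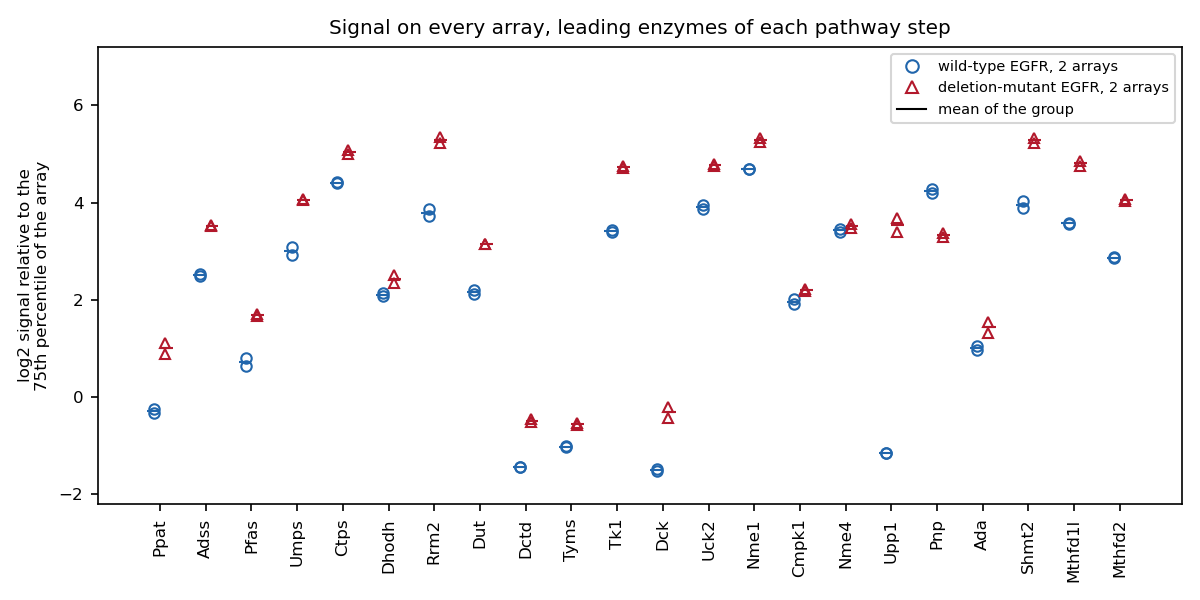
Signal on every array (vertical axis, log2 relative to the 75th percentile of the array) for Tyms and the 3 enzymes of each pathway step with the largest absolute change, 2 arrays per group with the mean as a line. Upp1 lies at -1.15 on both wild-type arrays and at 3.40 and 3.68 on the deletion-mutant arrays, while Pnp lies lower in deletion-mutant cells.

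Of 20 enzymes with more than 1 probe on the array, Pnp had only 1 above background and the other 19 had more. Their probes, each tested by itself, had the same call for 15 genes and differed for 4, namely Ctps2, Dhodh, Gmps and Samhd1. The same call can also mean not called. Both probes of Impdh2, a gene counted among the rises, missed the threshold in this test (adjusted p = 0.0502 and 0.12 from limma). Gmps rose by its brightest probe (log2 0.56 ± 0.057), while its other probes had 0.02 ± 0.122 and 0.21 ± 0.117. For Atic, the dimmer probe showed the larger log2 change, 1.09 against 0.68.

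A wider list of 67 other genes of nucleotide and folate metabolism was less uniform. Of these, 48 had a probe above background and were tested: 21 rose (43.8%), 8 fell (16.7%) and 19 did not pass, with a median log2 change of 0.16. Among 16 measured purine genes 8 rose and 2 fell, and among 15 measured folate and serine genes 5 rose and 4 fell. These counts stand beside 34.6% and 24.2% of all features called higher and lower.

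Among the largest rises of the wider list by fitted log2 change were those of Folr1, Psph and Lacc1. Folr1, a folate receptor, was not well above background on either wild-type array (-4.95 and -4.60) and had -2.53 and -2.61 in deletion-mutant cells, which gives at least 2.04-fold. It passed the filter only through deletion-mutant cells, and its place among the rises rests on a fitted value. Slc29a2, a nucleoside transporter above background on all 4 arrays, was 2.52-fold higher. Psph, the last enzyme of serine synthesis, was 2.61-fold higher. Lacc1, a multifunctional enzyme of purine nucleosides, was also 2.61-fold higher.

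Among genes called lower, the largest falls were those of Sardh, Xdh, Ak3 and Dguok. Dpyd, Ampd3 and Slc29a3, with log2 changes of -1.08, -0.60 and -0.58, did not pass the test (adjusted p = 0.11, 0.0548 and 0.0534). Sardh, a mitochondrial enzyme that passes one-carbon units from sarcosine to folate, had 1.68 and 1.74 against -1.03 and -1.03, 6.66-fold lower (log2 -2.74 ± 0.058 SE, adjusted p = 0.000163). Xdh, which makes uric acid, was 2.11-fold lower. Ak3, an adenylate kinase of the mitochondrial matrix, was 1.68-fold lower, and Dguok, the mitochondrial deoxyguanosine kinase, was 1.49-fold lower (log2 -0.57).

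**Figure D5:**
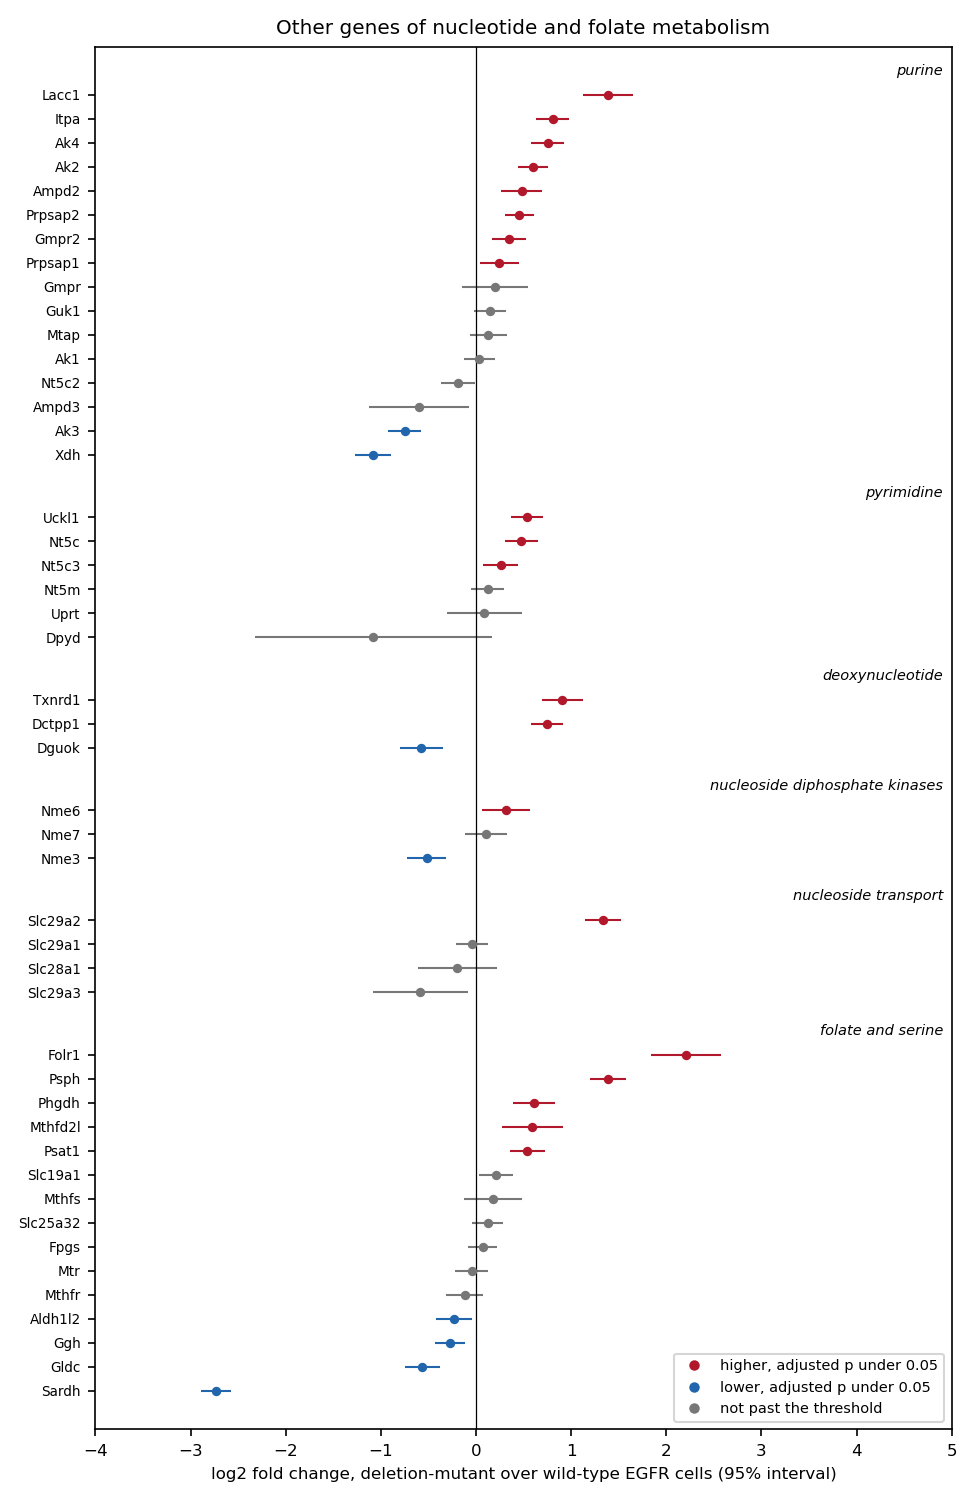
Log2 fold change with its 95% interval from limma (horizontal axis) for measured genes of the wider list, grouped by function. Sardh stands apart at -2.74, and the value of Folr1 is a fitted one, since wild-type cells were not well above background.

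The 250 bases before the annotated start are shown for 5 enzymes that rose by at least 2-fold: Upp1, with the largest rise, Rrm2 of the deoxynucleotide step, Tk1 of salvage, and Mthfd2 and Shmt2 of the folate step. Sequences are from RefSeq (GRCm38.p6), 5′ to 3′ on the strand of the gene, and capitals mark the motifs described after them.
Upp1: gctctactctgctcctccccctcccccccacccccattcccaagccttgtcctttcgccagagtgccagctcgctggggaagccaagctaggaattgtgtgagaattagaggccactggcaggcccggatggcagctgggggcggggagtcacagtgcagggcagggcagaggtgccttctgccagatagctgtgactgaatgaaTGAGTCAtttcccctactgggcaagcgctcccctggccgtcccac
Rrm2: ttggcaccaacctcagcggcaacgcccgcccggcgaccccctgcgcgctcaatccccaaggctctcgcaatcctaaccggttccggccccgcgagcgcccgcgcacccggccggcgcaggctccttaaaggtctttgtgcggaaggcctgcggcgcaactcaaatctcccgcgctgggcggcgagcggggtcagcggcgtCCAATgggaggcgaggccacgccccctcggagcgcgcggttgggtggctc
Mthfd2: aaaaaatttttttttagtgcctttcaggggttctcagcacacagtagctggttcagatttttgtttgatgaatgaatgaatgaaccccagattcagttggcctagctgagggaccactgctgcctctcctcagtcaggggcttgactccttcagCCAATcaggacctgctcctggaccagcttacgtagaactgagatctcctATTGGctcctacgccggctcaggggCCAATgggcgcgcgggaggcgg
Tk1: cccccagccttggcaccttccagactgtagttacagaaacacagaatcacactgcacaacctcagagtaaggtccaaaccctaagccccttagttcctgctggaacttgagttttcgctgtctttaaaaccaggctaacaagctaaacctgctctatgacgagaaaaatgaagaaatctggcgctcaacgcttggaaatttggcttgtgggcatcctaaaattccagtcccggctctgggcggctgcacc
Shmt2: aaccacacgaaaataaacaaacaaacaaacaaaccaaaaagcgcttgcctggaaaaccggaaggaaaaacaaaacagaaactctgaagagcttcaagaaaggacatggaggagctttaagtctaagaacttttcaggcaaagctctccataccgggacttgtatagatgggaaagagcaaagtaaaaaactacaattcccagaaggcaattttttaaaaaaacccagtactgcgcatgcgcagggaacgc
They span chr11:9117758-9118007 on the plus strand, chr12:24708004-24708253 on the plus strand, and chr6:83317605-83317854, chr11:117826015-117826264 and chr10:127522445-127522694 on the minus strand. The Upp1 window is 1 of 3 annotated for the gene.

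Windows were searched on both strands for the E-box CACGTG, for the E2F words TTTCCCGC and TTTGGCGC, for the ATF4 word TGATGNAA, for the AP-1 word TGANTCA and for CCAAT, none of which contains another. The Upp1 window holds 1 AP-1 word, the Rrm2 window 1 CCAAT and the Mthfd2 window 3 CCAAT in either orientation, while the Tk1 and Shmt2 windows hold none of the words. Of the other Upp1 windows, 1 overlaps the one shown and holds the same AP-1 word, and the third holds none of the words. Of 45 enzymes with a window in the table, 16 held CCAAT, 6 the E-box (Atic, Dtymk, Impdh2, Nme1, Paics and Tyms), 4 the AP-1 word (Adssl1, Aprt, Nme1 and Upp1), 1 an E2F word (Ppat) and 1 the ATF4 word (Prps1). These enzymes have 57 windows, since some genes have several. CCAAT was in 18 windows (31.6%), the E-box in 7 (12.3%), the AP-1 word in 5 (8.77%), and the E2F and ATF4 words in 1 each (1.75%). Over all 32851 windows of the same length the shares were 33.8%, 6.02%, 6.75%, 1.30% and 3.45%. A match is a run of letters and not a measured binding site.

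Scaling moved these counts. Median scaling moved the median of all features by 0.18 on the log2 scale and gave 37 enzymes higher and 1 lower, where 48.1% of all features were higher and 17.4% lower. Scaling on the 75th percentile of probes above background on all 4 arrays moved that median by -0.19 and gave 30 enzymes higher and 6 lower, where 23.6% of all features were higher and 37.2% lower. Of the features called, 58.9% were higher in the reported fit, 73.5% under median scaling and 38.9% under the scaling on detected probes. Under each of 14 alternative settings 29 of the 35 rises were called, the others being Ada, Cmpk1, Dhodh, Gmps, Impdh2 and Paics. Of these 6, only Impdh2 turned direction, with log2 changes of -0.038 after quantile normalization and -0.0044 with scaling on detected probes.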

How the data were processed

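The 4 samples were 1-colour Agilent arrays of mouse transcripts, 2 with RNA from NIH3T3 cells with wild-type EGFR and 2 with RNA from cells with a deletion mutant. Per the file headers the arrays were read with Feature Extraction 10.10.1.1, and probe coordinates are on mm9. The deposited files hold the processed signal of each spot as a linear intensity after background subtraction and detrending, the raw mean and local background as intensity, and, per the file headers, flags of another kind (0 or 1). A matrix of log2 values with equal array medians, deposited by the authors, served as an alternative.

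Spots marked as uneven or as population outliers and control spots were left out, and replicate spots were averaged on that log2 scale. The 75th percentile of each array was subtracted. Of 55670 probes, 25162 were well above background (a share of spots of at least 0.5) on both arrays of a group. A gene was represented by its brightest such probe, giving 18093 features. Groups were compared with limma 3.58.1 in R 4.3.3 (residual degrees of freedom 2, prior 2.18), with p-values adjusted by Benjamini and Hochberg. The number of arrays limits the precision. The comparison of groups was also run on simulated data in which a small part of the features changed. That run had no scaling step, so it cannot test the effect of scaling. All 47 enzymes matched RefSeq by accession, and 45 had a promoter window. Figures used Python 3.11.15 and matplotlib 3.10.9.

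The members and lists were chosen with earlier results of these data known. Values per array were given for Upp1, Tyms and Rrm2, for the 3 largest absolute changes of each step and for isoenzymes, and other values were chosen after they were seen. From the wider list the 4 largest rises and 4 largest falls were chosen, and 1 of these genes is counted but not reported here by name or drawn. The alternatives concerned background correction, scaling, the background filter, the variance model, the summary of probes, the replicate number as a block, leaving out each array and a 2-fold threshold.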

Additional observations from a re-analysis of the deposited data

How the results depend on the processing

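Scaling on detected probes means the 75th percentile over probes above background on all 4 arrays. Of 35 enzymes called higher, 11 passed an added 2-fold threshold, and of the 2 called lower, 0 did. Over the other alternatives the number called higher lay between 30 and 37. The number called lower was 4 after quantile normalization, 6 under scaling on detected probes, 1 under median scaling, the authors' values and no background filter, and 1 to 2 when an array was left out. The cause of these moves was not tested, except that leaving out an array leaves fewer samples. Among all features, 6727 were lower under scaling on detected probes, and 3741 higher and 2725 lower with no background filter, which tests 34816 features. By step, kinases called higher numbered 4 under median scaling and the authors' values and 1 under quantile normalization, scaling on detected probes, no filter, the replicate block and without any array. Breakdown enzymes called higher numbered 1 under scaling on detected probes, no filter and the replicate block, and 1 to 2 without an array, and those called lower 1 under median scaling, the authors' values and no filter, and 1 to 2 without an array. Salvage enzymes called lower, 0 in the reported fit (2 of the 8 had an adjusted p above the threshold), numbered 1 under normexp, quantile normalization and the trended variance and 2 under scaling on detected probes. Pyrimidine enzymes called lower numbered 1 under quantile normalization, detected-probe scaling and the mean of a gene's probes, and purine enzymes 1 under detected-probe scaling. Genes of the wider list called lower numbered 14 there, against 8. Under normexp the log2 changes of Dck, Dctd and Tyms were 0.78, 0.62 and 0.30, against 1.18, 0.95 and 0.47 in the reported fit, and each was still called higher.

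Direction turned for 11 genes, of which only Impdh2 was called in the reported fit; the cause was not tested. Under quantile normalization log2 changes were 0.014 (Adssl1), 0.12 (Cad), -0.038 (Impdh2), -0.13 (Nme4) and -0.16 (Samhd1). Under median scaling they were 0.012 (Adk), 0.050 (Adssl1), 0.13 (Cad), 0.043 (Ctps2), 0.13 (Tk2) and 0.17 (Tymp), and under the authors' values 0.013, 0.051, 0.13, 0.044, 0.13 and 0.17 in that order. Under scaling on detected probes they were -0.0044 (Impdh2), -0.15 (Nme2), -0.10 (Nme4), -0.16 (Prps2) and -0.18 (Samhd1), and under normexp -0.0052 (Samhd1). Without an array the range was -0.13 to 0.20 for Prps2, -0.021 to 0.048 for Samhd1, -0.054 to 0.034 for Tymp and -0.23 to 0.13 for Cad.

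The labels give both groups the replicate numbers 1 and 2. Arrays numbered 1 lay in row 1 of the slide and arrays numbered 2 in row 2, and the labels name no other shared batch. Deviations of same-numbered arrays correlated at 0.0472 across features. With the replicate number as a block 32 enzymes were called higher and 2 lower, and the calls of Ada, Cmpk1 and Impdh2 were lost (adjusted p = 0.0552, 0.0523 and 0.072).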
